A study of Mus musculus with 9 samples.

Results

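Among the noncoding transcripts that this array design covers is a set of mouse long intergenic noncoding RNA elements, named mouselincRNA with a number and a strand. All probes outside the controls whose name begins with mouselincRNA were taken, which gave 691 of 59709 probes. They cover 351 numbered elements, of which 340 have a probe for each strand, 3 have a + probe alone and 8 have a - probe alone. Each of these probes is printed once on an array, and none of their spots was saturated. The reading of + and - as strands is taken from the name, and a suffix of the deposited names is left off. An element is identified below by its number and strand, since gene names, positions and probe sequences for these elements were not used here.

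Long intergenic noncoding RNAs (lincRNAs) are transcripts without a long open reading frame that arise between protein-coding genes. Many are spliced and polyadenylated, and as a class they are known for low levels and for expression restricted to particular tissues or cell states. Transcription of both strands of a locus is common near promoters and enhancers, so a probe for each strand asks which of them yields RNA.

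Abdominal aortas of male mice were profiled on 9 single-colour Agilent arrays in 3 groups of 3. The control group is titled wild type, and nothing more is said of it. The CaPO4 group had an abdominal aortic aneurysm, and calcium phosphate laid on an artery is a chemical injury used to induce one. The naringenin group had an aneurysm and received naringenin, a flavonoid of citrus fruit; whether those mice received CaPO4 is not said in their labels. Strain, age, dose and duration were not given in the sources used here. The design text says that aortas were mixed within a group without saying how the mixtures relate to arrays, so p-values may measure technical spread rather than the spread between animals. In RNA from whole tissue, fewer cells of a type and less RNA per cell cannot be told apart.

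Signal is given as a level, the log2 intensity relative to the 75th percentile of the array, so that 0 is that percentile. A probe is called detected where the scanner software marked it well above background. Comparisons used limma on all probes of the array with Benjamini-Hochberg adjustment over all of them, and a probe was called at an adjusted p under 0.05. Where the dimmer group was not detected on all its arrays, a fold is a bound, written "at least". It sets the mean of the brighter group against a dim mean that takes, on each array, the higher of the probe's own signal and the lowest signal marked well above background.

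Some arrays stood apart. Over the 94 mouselincRNA probes with a value on every array and detection on all of them, CaPO4 1 and CaPO4 3 correlated at r = 0.989, while CaPO4 2 correlated with them at 0.851 and 0.847 and with naringenin 1 and naringenin 2 at 0.962 and 0.955. CaPO4 2 lay nearer to the naringenin mean than to CaPO4 1 and 3 for 69 of these 94 probes (73.4%), against 72.3% of all such probes on the array. Naringenin 3 was scanned alone and had lax detection marks, with 41.4% of its negative control spots marked well above background against 1.08% to 14.6% on the other arrays. The file headers place the 3 controls in scan 1, the CaPO4 arrays with naringenin 1 and 2 in scan 2, and naringenin 3 in scan 3, and in comparisons with the controls the scan cannot be told apart from the group.

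Of 51 markers of aortic, immune and neighbouring cell types, 4 are named on this array, and none of these marks smooth muscle, endothelium or macrophages, so the tissue label was not checked on them. Amy2a5, a pancreatic amylase gene and the 1 of 12 acinar markers named here, was at 0.14, 0.57 and 0.74 on the control arrays, at 2.07, 11.08 and 2.08 with CaPO4 and at 11.03, 11.15 and 9.96 with naringenin. The chemokine genes Ccl21b, Ccl21c and Gm13304, 3 of 8 markers listed for lymphatic endothelium and lymph node stromal cells, were at 4.97 to 5.62 on the controls, 7.62 to 7.83 on CaPO4 1 and 3, and 8.54 to 9.74 on CaPO4 2 and the naringenin arrays. On these genes CaPO4 2 lay with or near the naringenin arrays, as it did for 69 of the 94 mouselincRNA probes, and their part in the changes below was not tested.

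Most mouselincRNA elements gave little signal in aorta. Of the 691 probes, 98 (14.2%) were detected on all 9 arrays, against 32.3% of all probes on the array. Detection on at least 1 array reached 511 (74.0%, against 87.1% of all probes), but 183 of these (26.5% of the set, against 15.5% of all probes) were detected on naringenin 3 alone. Without naringenin 3, 328 probes (47.5%) were detected on at least 1 of the other arrays, and the count on all of those stayed at 98. A stricter rule, a signal above the 99th percentile of the negative control spots, left 58 probes (8.39%, against 19.5% of all probes) on all 9 arrays and 197 on at least 1.

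The detected number varied between arrays more than the stricter count did. The software marked 231, 197 and 204 mouselincRNA probes on the control arrays, 137, 216 and 124 with CaPO4 and 235, 177 and 481 with naringenin. Above the negative controls, the counts were 121, 117 and 129 on the control arrays, 121, 117 and 121 with CaPO4 and 123, 113 and 83 with naringenin. By the stricter rule naringenin 3 thus had the fewest detected elements, where the software's marks gave it the most. The bars of detection by array show both rules beside the marks on the negative controls.

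**Figure D1:**
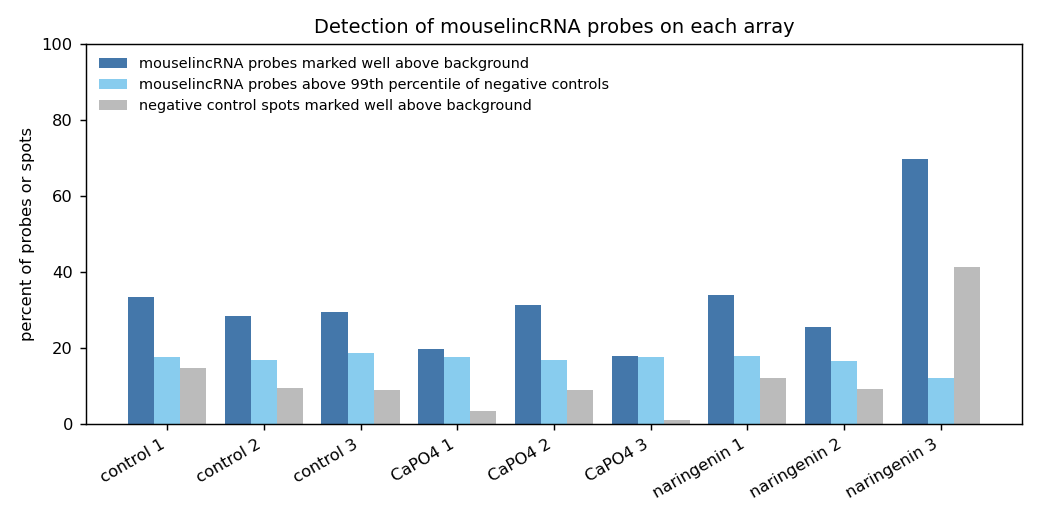
Percent of the 691 mouselincRNA probes marked well above background (dark bars) and above the 99th percentile of the negative control spots (light bars) on each of the 9 arrays, with the percent of negative control spots marked well above background (grey bars). Naringenin 3 has the tallest dark bar (69.6%), the tallest grey bar (41.4%) and the shortest light bar (12.0%).

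As a description, with no test made, the share detected on all 9 arrays lay near those of the elements defined from human lincRNAs (11.8% of 1217 probes) and of the ultraconserved elements (12.7% of 962). It lay below that of the annotated mouse lincRNA exons (24.0% of 3457) and of the probes named for genes and cDNA clones (30.4% of 1540). The median level of all 691 probes ran from -3.87 to -3.03 over the 9 arrays.

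The 10 probes chosen for the highest mean level among those detected on all 9 arrays are mouselincRNA1188-, mouselincRNA1606-, mouselincRNA0772-, mouselincRNA0161-, mouselincRNA0305-, mouselincRNA0158-, mouselincRNA1267-, mouselincRNA1437+, mouselincRNA0538+ and mouselincRNA0499+. The plot of levels by array gives each of them, beside 8 probes with large changes. mouselincRNA1188- was at 9.48, 9.55 and 9.44 on the control arrays, 10.38, 7.0 and 10.18 with CaPO4 and 6.87, 6.96 and 7.50 with naringenin. CaPO4 2 thus sat with the naringenin arrays, apart from the other CaPO4 arrays. The same placement was seen in mouselincRNA1606- (8.52, 4.73 and 8.27 on the CaPO4 arrays against 4.78 to 5.51 with naringenin), mouselincRNA0158- (8.16, 3.79 and 7.73 against 3.88 to 4.21) and mouselincRNA1267- (7.73, 4.47 and 7.43 against 4.24 to 4.35).

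**Figure D2:**
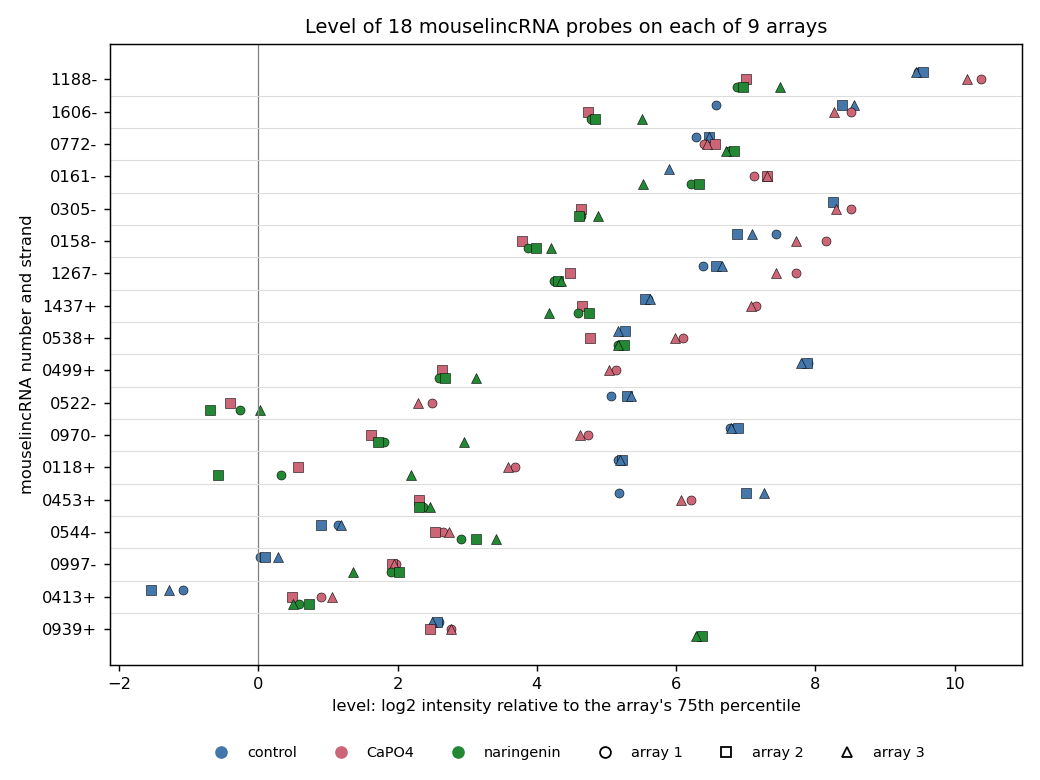
Level of 18 mouselincRNA probes (log2 intensity relative to the array's 75th percentile, horizontal) on each of 9 arrays, coloured by group and shaped by array number; missing points are spots marked as outliers. In mouselincRNA1188-, mouselincRNA1606-, mouselincRNA0305-, mouselincRNA0158-, mouselincRNA1267-, mouselincRNA1437+ and mouselincRNA0499+ the square of CaPO4 2 lies beside the naringenin points, while mouselincRNA0939+ has its 3 naringenin points between 6.29 and 6.37 and all other arrays at 2.77 or below.

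Several bright elements were higher on CaPO4 1 and 3 than on any control array and lower with naringenin. mouselincRNA1437+ was at 5.60, 5.55 and 5.62 on the control arrays, 7.15, 4.65 and 7.08 with CaPO4 and 4.59, 4.75 and 4.18 with naringenin. mouselincRNA0538+ was at 5.26 and 5.16 on 2 control arrays, at 6.10, 4.77 and 5.98 with CaPO4 and at 5.16, 5.25 and 5.17 with naringenin. For mouselincRNA0538+ the naringenin arrays lay within the range of those controls. Outlier marks removed the spot of mouselincRNA0538+ on control 1, those of mouselincRNA0161- on controls 1 and 2, and those of mouselincRNA0305- on controls 1 and 3, so mouselincRNA0161- and mouselincRNA0305- rest on 1 control array each. mouselincRNA0161- was at 5.90 on that control, at 7.12, 7.31 and 7.30 with CaPO4 and at 6.21, 6.33 and 5.53 with naringenin. Here CaPO4 2 lay with its own group, as it did in mouselincRNA0772-. mouselincRNA0305- was at 8.26 on its control, at 8.51, 4.63 and 8.30 with CaPO4 and at 4.63, 4.61 and 4.88 with naringenin, with CaPO4 2 among the naringenin arrays.

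The most even probes, chosen for the smallest range over the 9 arrays, were mouselincRNA0772-, mouselincRNA1637+, mouselincRNA0858-, mouselincRNA1592- and mouselincRNA0495-. mouselincRNA0772- was both bright and even, at 6.29, 6.47 and 6.47 on the control arrays, 6.40, 6.56 and 6.45 with CaPO4 and 6.76, 6.83 and 6.72 with naringenin. Its range of 0.54 log2 units was the smallest of the 98 probes detected throughout. The other 4 had ranges of 0.71 to 0.87 and mean levels below 0, and none of the 5 was called in any comparison. Among those 98 probes the median SD between the 3 arrays of a group was 0.14 in controls, 0.59 in the CaPO4 group and 0.30 in the naringenin group.

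The order of the 3 group means in these 98 probes is given as a description. In 36 (36.7%, against 27.9% of all probes detected throughout) the control mean was highest, the CaPO4 mean next and the naringenin mean lowest. In 22 (22.4%, against 31.3%) the order was the reverse of that. The CaPO4 means include CaPO4 2.

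The comparison of CaPO4 with control asks which elements differ between aneurysm and control aorta. With CaPO4 the - strand probes mouselincRNA0522- and mouselincRNA0970- and the + strand probe mouselincRNA0499+, all bright in controls, fell by 8.96-fold to 13.8-fold. The probes mouselincRNA0413+, mouselincRNA0997- and mouselincRNA0544- rose by 2.96-fold to 4.33-fold. Of the 255 mouselincRNA probes tested, 78 were called (30.6%, where 21.5% of all probes tested were), 29 higher (against 10.1% of all probes) and 49 lower (against 11.4%). The median change was -0.31 log2 units over these probes and -0.04 over all probes. With the scaling left out, the median over all probes was -1.15 and the split became 1 higher and 91 lower, and with scaling on the array median it was 34 and 37. Scaling on the probes detected throughout gave 15 higher and 54 lower, and normexp background correction gave 27 and 20, so the excess of lower calls is not shared by all settings. The groups did not overlap in 52.2% of the 255 probes, against 48.7% of all probes.

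Many calls lie at the edge of detection. Of the 49 lower calls, 12 were detected on all CaPO4 arrays, 15 on some and 22 on none. Of the 29 higher calls, 9 were detected on all control arrays, 6 on some and 14 on none. Within the 98 probes detected on every array, 21 were called (21.4%, against 18.3% of all such probes), 9 higher and 12 lower.

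The largest measured fall was that of mouselincRNA0522-. It was at 5.07, 5.30 and 5.35 on the control arrays, 2.49, -0.41 and 2.29 with CaPO4 and -0.27, -0.70 and 0.02 with naringenin. All 6 treated arrays lay below the controls, and CaPO4 2 lay with the naringenin arrays. CaPO4 was 13.8-fold lower than control (log2 change -3.79, SE 0.66, adjusted p = 0.00598), and the change was -2.85 without CaPO4 2.

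mouselincRNA0499+ and mouselincRNA0970- followed the same course. mouselincRNA0499+ was at 7.90, 7.88 and 7.79 on the control arrays, 5.14, 2.64 and 5.04 with CaPO4 and 2.60, 2.68 and 3.13 with naringenin, and CaPO4 was 12.0-fold lower than control (adjusted p = 0.00499; log2 change -3.58, and -2.77 without CaPO4 2). mouselincRNA0970- was at 6.78, 6.89 and 6.79 on the control arrays, 4.74, 1.62 and 4.62 with CaPO4 and 1.81, 1.72 and 2.95 with naringenin. It was 8.96-fold lower (adjusted p = 0.0172; log2 change -3.16, and -2.14 without CaPO4 2), a call lost without any one control, at adjusted p = 0.0579, 0.0600 and 0.0518. In all 3 elements CaPO4 1 and 3 lay between the controls and the naringenin arrays.

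The further falls named by their size ended at or near background, so only bounds are given. mouselincRNA1545+ was at 0.15, 0.21 and 0.29 on the control arrays and detected on 1 CaPO4 array, and its fall was at least 3.61-fold (adjusted p = 0.00229). Those of mouselincRNA0133+, mouselincRNA1117-, mouselincRNA1511+, mouselincRNA1595+, mouselincRNA1250+ and mouselincRNA1303+, detected on all controls and no CaPO4 array, were at least 2.18-, 1.99-, 1.99-, 1.90-, 1.54- and 1.43-fold. Leaving out mouselincRNA1511+ and mouselincRNA1250+, adjusted p ran from 0.00308 for mouselincRNA1117- to 0.00837 for mouselincRNA1595+. The probes left out were detected on no naringenin array either. They passed the filter, detection on at least 3 arrays, through the controls alone. They could be tested only if they were brighter there, so their calls are given as a description. mouselincRNA0133+, mouselincRNA1117- and mouselincRNA1595+ were detected on 1 naringenin array beside the controls. Without the controls these probes would not have reached 3 arrays, so their calls too are given as a description. Under normexp background correction the 6 probes detected on no CaPO4 array lost their calls, with adjusted p between 0.0915 for mouselincRNA1595+ and 0.715 for mouselincRNA1303+, while mouselincRNA1545+ kept its call.

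Among the 10 named rises, 4 were measured on both sides. mouselincRNA0413+ was at -1.08, -1.54 and -1.29 on the control arrays, 0.90, 0.48 and 1.06 with CaPO4 and 0.59, 0.72 and 0.49 with naringenin. mouselincRNA0997- was at 0.03, 0.10 and 0.28, then 1.97, 1.92 and 1.95, then 1.91, 2.02 and 1.36 on the same arrays. mouselincRNA0544- was at 1.15, 0.90 and 1.18, then 2.65, 2.54 and 2.74, then 2.91, 3.12 and 3.42. CaPO4 2 kept with its group in mouselincRNA0544- and lay beside the naringenin arrays in mouselincRNA0413+. For mouselincRNA0997- it lay near CaPO4 1 and 3 and near naringenin 1 and 2 alike. No treated array reached down to a control in these 3 elements.

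The rises with CaPO4 were 4.33-fold for mouselincRNA0413+ (log2 change 2.11, SE 0.30, adjusted p = 0.00339), 3.51-fold for mouselincRNA0997- (1.81, SE 0.30, adjusted p = 0.00508) and 2.96-fold for mouselincRNA0544- (1.56, SE 0.29, adjusted p = 0.00737). mouselincRNA1453+, at 1.05, 0.75 and 1.03 on the controls and 3.09, 1.47 and 3.06 on the CaPO4 arrays, rose 3.02-fold (adjusted p = 0.0313), a call lost without any one control, without CaPO4 1 or 3, and without naringenin 2, and also lost under quantile normalization and normexp. Its log2 change was 1.59, and 2.13 without CaPO4 2.

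The other 6 rises started from controls that were dim on some or all arrays. mouselincRNA0892- was at -4.58, -3.40 and -3.47 on the control arrays, none detected, and at -0.70, -0.76 and -1.07 on the CaPO4 arrays, all detected, a rise of at least 2.55-fold (adjusted p = 0.00241). The bounds were at least 4.19-fold for mouselincRNA0293+, 3.73-fold for mouselincRNA0392+, 3.24-fold for mouselincRNA0722-, 2.18-fold for mouselincRNA1377- and 2.09-fold for mouselincRNA0744+. Without scaling between arrays, where the median over all probes is -1.15, 9 of the 10 named rises lost their call and mouselincRNA0892- kept it. Without control 3, mouselincRNA0744+ (adjusted p = 0.0555) and mouselincRNA1377- (0.0505) lost theirs, and without control 2 so did mouselincRNA0744+ (0.0551).

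Detection itself changed sides for some elements. A total of 22 of the 691 probes (3.18%, against 3.58% of all probes on the array) were detected on all controls and on no CaPO4 array, and 2 (mouselincRNA0892- and mouselincRNA1377-; 0.289%, against 0.471%) the other way round. Of the 22, 18 were called lower, a direction that the choice by detection favours. Among these, those with the highest bounds were mouselincRNA1081+ (0.11, -0.14 and -0.08 on the controls, at least 3.34-fold lower, adjusted p = 0.00353), mouselincRNA0632+ (at least 2.57-fold, adjusted p = 0.0219) and mouselincRNA1124- (at least 2.49-fold, adjusted p = 0.00864). The call for mouselincRNA0632+ was lost without any one control, and those for mouselincRNA0632+ and mouselincRNA1124- under normexp. CaPO4 1 and 3 were the dimmest arrays, with 75th percentiles of 44.4 and 42.6 intensity units against 116 to 117 on the controls, and the part of array brightness in these switches was not tested.

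The fit uses 1 estimate of the spread for all 3 groups. Leaving out an array therefore also alters the tests of a comparison that does not use it. Thus naringenin minus CaPO4 had 7 calls with all arrays and 2 without any 1 control. The number of calls in CaPO4 minus control was also lower without any 1 control. It fell from 78 to 38 without control 1 (14.9%, against 7.90% of all probes), 35 without control 2 (13.8%, against 7.58%) and 42 without control 3 (16.5%, against 9.59%). It was 99 without CaPO4 2 (38.8%, against 31.6%; 72 of the 78 among them) and 148 without both CaPO4 2 and naringenin 3 (58.0%, against 52.8%).

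**Figure D3:**
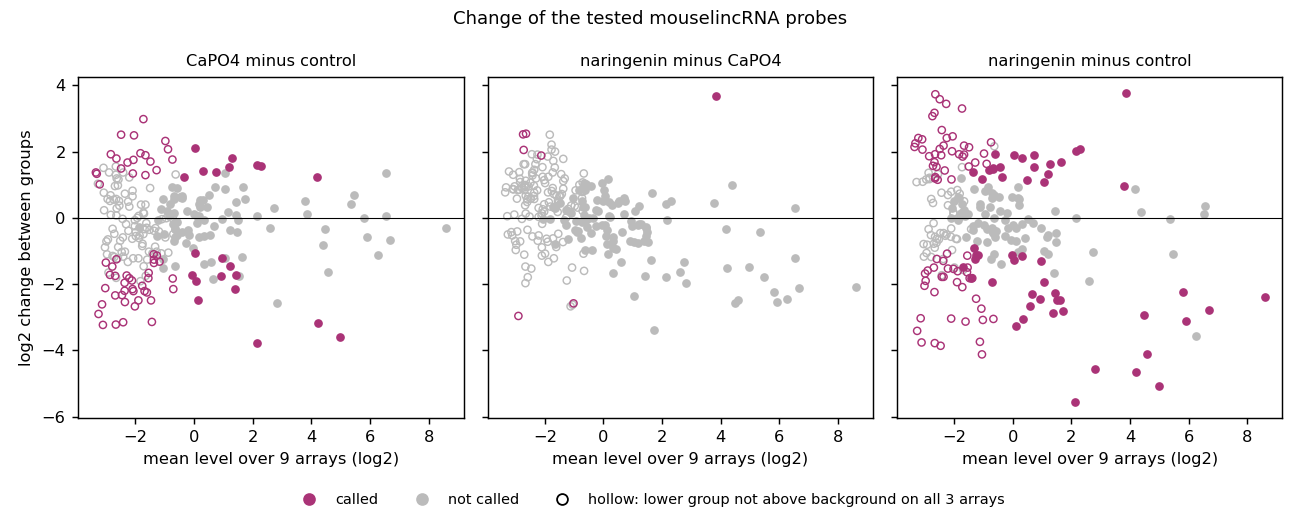
Log2 change (vertical) against mean level over the 9 arrays (horizontal) for the 255 tested mouselincRNA probes in each comparison; coloured points were called, and hollow points mark a lower group not detected on all 3 arrays. There are 78, 7 and 125 coloured points from left to right, and mouselincRNA0939+ is the point at 3.67 in the middle panel.

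The comparison of naringenin with CaPO4 asks what differs between aneurysm with and without naringenin. One bright element, mouselincRNA0939+, was 12.7-fold higher with naringenin, and the other calls were of probes that were dim in at least 1 of the groups. Of the 255 probes, 7 were called (2.75%, where 2.18% of all probes were), 5 higher (against 0.808% of all probes) and 2 lower (against 1.38%). With scaling on the array median or by quantiles the split was 5 and 5, and without scaling, where the median over all probes was 1.30, it was 4 and 0. At an unadjusted p under 0.05 there were 87. Among the 98 probes detected throughout, 1 was called (1.02%, against 1.84% of all such probes), and the groups did not overlap in 32.9% of the 255, against 24.2% of all probes. The median change was 0.23 over these probes and 0.11 over all probes.

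mouselincRNA0939+ gave the clearest difference. It was at 2.60, 2.56 and 2.50 on the control arrays, 2.76, 2.46 and 2.77 with CaPO4 and 6.33, 6.37 and 6.29 with naringenin. The 3 naringenin arrays, from 2 scans, lay close together, and CaPO4 2 lay with its own group. Naringenin was 12.7-fold higher than CaPO4 (log2 change 3.67, SE 0.28, adjusted p = 0.000946) and 13.7-fold higher than control (3.78, SE 0.27, adjusted p = 0.000185). The call against CaPO4 held without any 1 array, with adjusted p up to 0.0136. Within scan 2 alone, 3 CaPO4 arrays against 2 naringenin arrays, the change was 3.69 with adjusted p = 0.311, and 0 of the 255 probes were called there by limma (29 at an unadjusted p under 0.05).

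The other 4 rises came from levels below or near background with CaPO4. mouselincRNA0188- was at -3.45, -2.31 and -3.51 with CaPO4 and -1.07, -0.95 and 0.37 with naringenin, a rise of at least 2.13-fold (adjusted p = 0.0321). mouselincRNA0633- was detected on no CaPO4 or control array and was at -1.42, -0.94 and -0.29 with naringenin, at least 1.86-fold higher (adjusted p = 0.0201). mouselincRNA0158+ was likewise detected only with naringenin and was at least 1.20-fold higher (adjusted p = 0.0450). Both passed the filter, detection on at least 3 of the 9 arrays, through the naringenin arrays alone, as did mouselincRNA0767+, so they could be tested only if they were brighter there, and their calls are given as a description. mouselincRNA0188- was detected on 1 CaPO4 array and no control, and would not have passed without the naringenin arrays. Its call is likewise a description. In mouselincRNA0188-, mouselincRNA0633- and mouselincRNA0158+ naringenin 3 was the highest array. Each of these calls was lost under normexp and without CaPO4 1, CaPO4 3 or any 1 naringenin array, and those of mouselincRNA0188- and mouselincRNA0158+ also without any 1 control.

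mouselincRNA0735- is the one probe called in opposite directions in the 2 steps. It was at -1.40, -1.57 and -1.49 on the control arrays, -3.76, -2.87 and -3.51 with CaPO4 and -2.21, -1.46 and -0.82 with naringenin. It was detected on all control and naringenin arrays and on no CaPO4 array. The bounds were at least 1.22-fold lower with CaPO4 than in controls (adjusted p = 0.0122) and at least 1.21-fold higher with naringenin than with CaPO4 (adjusted p = 0.0459). None of its spots lay above the 99th percentile of the negative controls, and both calls were lost under normexp background correction. The call against control was also lost without control 1 (adjusted p = 0.0517), and the call against CaPO4 without any 1 array other than CaPO4 2.

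One fall had CaPO4 detected throughout. mouselincRNA0448+ was at 0.06, 0.29 and 0.16 on the control arrays, 0.38, -1.33 and -0.04 with CaPO4 and -2.96, -2.27 and -3.49 with naringenin. All 6 arrays without naringenin lay above the 3 with it, and the fall was at least 5.28-fold (adjusted p = 0.0295), a call lost without any 1 array other than CaPO4 2. The second lower call, mouselincRNA0214+, is named here after its values were seen: it was detected on 2 CaPO4 arrays and no naringenin array, and its fall was at least 2.94-fold (adjusted p = 0.0343).

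How many probes were called in this comparison depended on CaPO4 2. Without it, 111 probes were called (43.5%, against 45.4% of all probes), 54 higher (48.6% of these calls, against 55.7% of the calls over all probes) and 57 lower, with all 7 among them. Without CaPO4 1, CaPO4 3 or any 1 naringenin array mouselincRNA0939+ alone remained called, and without any 1 control 2 probes did, mouselincRNA0939+ and mouselincRNA0633-.

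The comparison of naringenin with control sets naringenin-treated aneurysm against control aorta, and it shares its arrays with the 2 comparisons above. The bright elements that fell with CaPO4 stood 25.3-fold to 47.1-fold below controls with naringenin, and mouselincRNA0939+ stood 13.7-fold above them. Of the 255 probes, 125 were called (49.0%, where 45.9% of all probes were), 59 higher (22.6% of all probes) and 66 lower (23.3% of all probes). The median change was -0.25 over these probes and 0.02 over all probes, and the groups did not overlap in 67.5% of them, against 67.9% of all probes. Among the 98 probes detected throughout, 43 were called (43.9%, the same share as of all such probes). Without CaPO4 2 and naringenin 3 together, 171 were called (67.1%, against 69.9% of all probes), 64 higher and 107 lower, so that 37.4% of these calls were higher, against 52.4% of the calls over all probes. Without naringenin 3 alone 113 were called (44.3%, against 43.4%), 48 higher and 65 lower (42.5% higher, against 50.8%).

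The largest falls were again in bright elements. mouselincRNA0522- was 47.1-fold lower with naringenin than in controls (log2 change -5.56, SE 0.66, adjusted p = 0.000616), mouselincRNA0499+ 33.3-fold lower (-5.06, SE 0.59, adjusted p = 0.000581) and mouselincRNA0970- 25.3-fold lower (-4.66, SE 0.74, adjusted p = 0.00147). mouselincRNA0118+ was at 5.17, 5.23 and 5.19 on the control arrays, 3.68, 0.57 and 3.59 with CaPO4 and 0.33, -0.58 and 2.19 with naringenin, 23.4-fold lower with naringenin (log2 change -4.55, adjusted p = 0.00292; -5.32 without naringenin 3 and -3.94 without naringenin 2). Its 3 controls lay close together, and naringenin 3 stood above the other naringenin arrays.

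mouselincRNA0453+ fell 17.3-fold (adjusted p = 0.00665) from 5.18, 7.01 and 7.26 on the control arrays to 2.36, 2.30 and 2.46 on the naringenin arrays, and control 1 stood below the other controls (log2 change -4.11, and -4.76 without control 1). Control 1 was also lowest for mouselincRNA1606-, at 6.57 against 8.38 and 8.56, and its change of -2.79 was -3.43 without control 1. mouselincRNA1634- fell at least 11.5-fold (adjusted p = 0.00178), from 0.82, 0.87 and 0.78 on the control arrays to a naringenin group detected on 1 array.

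The next falls ended below or near background. They were at least 7.17-fold for mouselincRNA0009+, 6.05-fold for mouselincRNA0614+, 4.67-fold for mouselincRNA1511+ and 4.61-fold for mouselincRNA1249+, and mouselincRNA0614+, mouselincRNA1511+ and mouselincRNA1249+, with mouselincRNA1250+, make up the 4 probes detected on all controls and on no naringenin array (0.579%, against 0.476% of all probes). mouselincRNA1511+, mouselincRNA1249+ and mouselincRNA1250+ were detected on no CaPO4 array either, so they passed the filter on detection through the controls alone and could be tested only if they were brighter there. mouselincRNA0614+ was detected on 1 CaPO4 array beside the controls and would not have passed the filter without the controls. The change of mouselincRNA1249+ was -3.78, and -2.97 without naringenin 3 and -4.45 without naringenin 1. Of the 10 brightest probes, mouselincRNA1188- (5.21-fold, adjusted p = 0.0262), mouselincRNA1606- (6.93-fold, 0.0315), mouselincRNA0158- (8.65-fold, 0.0206), mouselincRNA1267- (4.71-fold, 0.0270) and mouselincRNA0499+ fell. The calls of mouselincRNA1188- and mouselincRNA1267- were lost without any 1 control or naringenin array, those of mouselincRNA0158- without control 1, control 3 or any 1 naringenin array, and those of mouselincRNA1606- without control 2, control 3 or any 1 naringenin array, and all 4 with scan as a random block.

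Apart from mouselincRNA0939+, the named rises came from controls with no detected spot. A total of 20 of the 691 probes (2.89%, against 4.41% of all probes on the array) were detected on all naringenin arrays and no control, and the same number on naringenin 1 and 2 and no control. All 20 were called higher, a direction that the choice by detection favours, so these calls add no support. mouselincRNA0892- was at -0.40, -0.38 and -0.76 with naringenin, a rise of at least 3.19-fold (adjusted p = 0.000561). mouselincRNA0627-, mouselincRNA0508- and mouselincRNA0188- rose at least 3.17-, 3.16- and 3.12-fold, and mouselincRNA1377- at least 2.95-fold. The bounds for mouselincRNA0633-, mouselincRNA1636+, mouselincRNA0490-, mouselincRNA0843-, mouselincRNA1171- and mouselincRNA0767+ ran from at least 1.18-fold for mouselincRNA0767+ to at least 2.48-fold for mouselincRNA0633-. The call of mouselincRNA0627- was lost without control 1 (adjusted p = 0.0545) or without naringenin 3 (0.0529), and that of mouselincRNA0767+ under normexp (0.129). In mouselincRNA1636+ and mouselincRNA0490- naringenin 3 was the highest array, at 0.02 and 0.36 against -1.90 to -1.40 on the others, and the change of mouselincRNA0490- was 3.17, and 2.46 without naringenin 3.

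Among elements detected on all 9 arrays, or on at least 3, most gave signal from 1 strand. Of the 340 elements with both probes, 11 had both strands detected on all 9 arrays, 31 the + strand alone, 44 the - strand alone and 254 neither. On at least 3 arrays the counts were 45 with both, 78 with the + strand alone, 84 with the - strand alone and 133 with neither. Where the + strand was detected on at least 3 arrays, so was the - strand in 36.6%, near the 36.9% of all mouselincRNA probes. By detection on all 9 arrays these shares were 26.2% and 14.2%. Above the negative controls on all 9 arrays, 5 had both, 23 the + strand, 24 the - strand and 288 neither. Both strands were detected on at least 1 array in 179 elements, and in 72 when naringenin 3 was left out.

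The 5 brightest elements with both strands detected throughout were mouselincRNA0706, mouselincRNA0543, mouselincRNA0077, mouselincRNA1592 and mouselincRNA0522. In mouselincRNA0543 the 2 strands both dipped on CaPO4 2: the - probe was at 4.20, 1.03 and 3.87 on the CaPO4 arrays and the + probe at 1.89, -0.20 and 1.76. In mouselincRNA0077 both probes were higher with naringenin than in controls on all 3 arrays, the + probe at 3.38 to 3.57 in controls and 3.73 to 4.69 with naringenin, and the - probe at -1.44 to -1.30 and -0.14 to 0.32; of the 2, the - probe was called (2.83-fold higher, adjusted p = 0.00423).

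In the 45 elements with both strands tested, the changes of the 2 strands had the same sign in 27 for CaPO4 minus control (60%, against 52.9% of all strand pairs), in 21 for naringenin minus CaPO4 (46.7%, against 55.3%) and in 22 for naringenin minus control (48.9%, against 52.5%). Across these pairs the correlation of the + and - changes was r = 0.22 for CaPO4 minus control, -0.11 for naringenin minus CaPO4 and -0.07 for naringenin minus control, as a description over 45 elements that share their arrays. Over all strand pairs it was 0.04, 0.06 and 0.10. Both strands were called in 1 element with CaPO4 against control (mouselincRNA0797, in the same direction) and in 10 with naringenin against control, 5 in the same direction and 5 in opposite directions. The 5 opposite ones were mouselincRNA0158, mouselincRNA0997, mouselincRNA1117, mouselincRNA1188 and mouselincRNA1250.

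A shift of strand balance was tested with limma on the within-array difference of the + and - probe, in which the scaling of an array cancels, over all strand pairs on the array. With CaPO4 against control 11 of the 45 pairs were called (24.4%, against 26.7% of all pairs), and with naringenin against CaPO4 5 (11.1%, against 5.31%). With naringenin against control 28 were called (62.2%, against 44.9%), 19 towards + and 9 towards -, where the calls over all pairs were 158 towards + and 162 towards -. Without control 1, 2 and 3 the first count was 6, 7 and 6 (13.3% of 45, 15.9% of 44 and 13.3% of 45, against 15.8%, 15.4% and 13.2% of all pairs). The second was 21 without CaPO4 2 (46.7%, against 37.4%) and 3 without any 1 control (6.67%, against 1.82% to 2.37%). It was 2 without naringenin 1 or naringenin 2 (4.44%, against 2.51% and 1.68%), and 1 without CaPO4 1, CaPO4 3 or naringenin 3 (2.22%, against 0.698%, 0.698% and 0.838%). The third was 18 without control 3 (40.0%, against 32.1%).

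**Figure D4:**
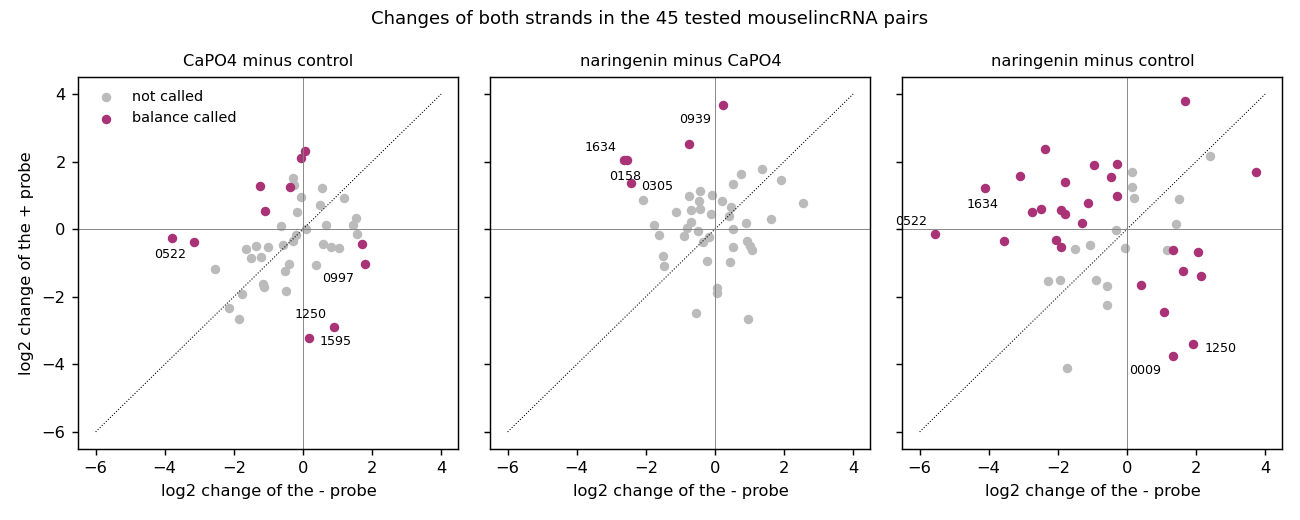
Log2 change of the + probe (vertical) against that of the - probe (horizontal) in the 45 mouselincRNA elements with both strands tested, for each comparison; the dotted line marks equal change, and coloured points are pairs whose strand balance was called. Coloured points number 11, 5 and 28 from left to right, and in the panels against control mouselincRNA0522 lies far left at a + change near 0.

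The shift in mouselincRNA0522 was one-sided. Its + probe was at 0.79, 0.97 and 0.72 on the control arrays, 0.85, 0.26 and 0.59 with CaPO4 and 0.44, 0.37 and 1.25 with naringenin. The + groups overlapped, while the - probe fell as given above. The balance moved towards + by 3.53 log2 units with CaPO4 (SE 0.63, adjusted p = 0.00431; 2.75 without CaPO4 2) and by 5.42 with naringenin against control (SE 0.63, adjusted p = 0.000290).

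In mouselincRNA0939 the + strand was the one that moved with naringenin. Its - probe was at -1.68, -2.60 and -2.66 on the control arrays, -1.06, -0.63 and -0.93 with CaPO4 and -0.70, -0.69 and -0.54 with naringenin. The - probe had thus already risen with CaPO4 (at least 2.18-fold, adjusted p = 0.0185), when the + probe was at control level. The balance moved towards + by 3.44 with naringenin against CaPO4 (SE 0.46, adjusted p = 0.00288), and within scan 2 alone by 3.51 with adjusted p = 0.107.

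In other elements the strands differed in opposite directions. In mouselincRNA0997 the - probe rose with CaPO4 as given above, and the + probe went from -0.30, -0.73 and -0.54 on the control arrays to -1.85, -1.61 and -1.16 with CaPO4 and -1.39, -1.97 and -1.96 with naringenin. The treated arrays of both groups lay apart from the controls on each strand, and the balance moved towards - by 2.83 (log2 change of the balance -2.83, SE 0.45, adjusted p = 0.00229) with CaPO4. The + probe was detected on 2 CaPO4 arrays, and its own change with CaPO4 was not called by limma (log2 change -1.02, adjusted p = 0.0504). In mouselincRNA1250 the - probe was at -1.45, -1.76 and -1.39 on the control arrays, -1.12, 0.07 and -0.82 with CaPO4 and 0.25, 0.25 and 0.64 with naringenin, while the + probe lost detection in both treated groups. Its balance change was -3.82 with CaPO4 (adjusted p = 0.00428; -3.05 without CaPO4 2) and -5.32 with naringenin against control (adjusted p = 0.000320). That + probe passed the filter through the controls alone, so the pair could be tested only if the + probe was brighter there. These balance changes are therefore given as a description.

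**Figure D5:**
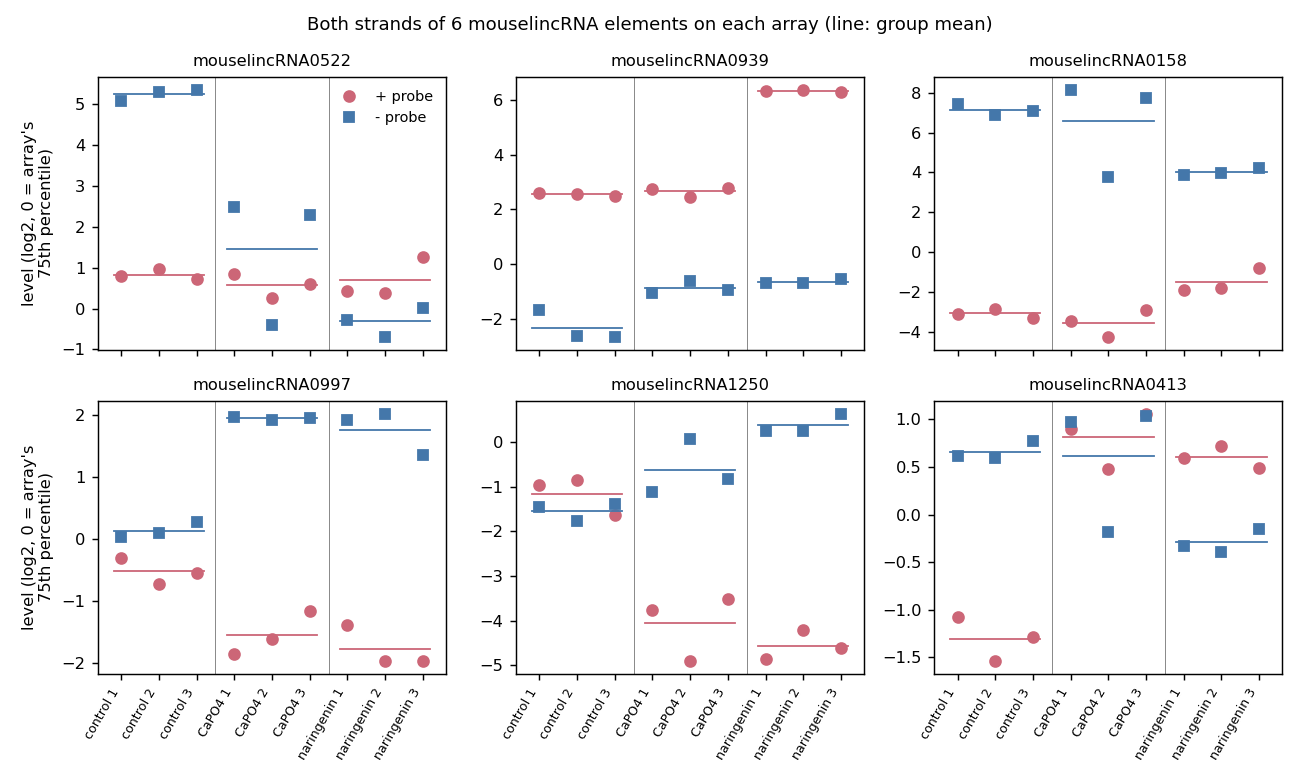
Level of the + probe (circles) and the - probe (squares) of 6 mouselincRNA elements on each of 9 arrays, with a line at each group mean; vertical lines part control, CaPO4 and naringenin. In mouselincRNA0522 the squares drop from above 5 in controls to 0.02 or below with naringenin while the circles stay between 0.26 and 1.25, and in mouselincRNA0939 the circles stand near 6.3 with naringenin alone.

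In mouselincRNA0413 the + probe rose with CaPO4 while the - probe was at 0.61, 0.59 and 0.77 on the control arrays and 0.97, -0.18 and 1.04 on the CaPO4 arrays, and the balance moved towards + by 2.17 (SE 0.44, adjusted p = 0.00682). Shifts towards + with CaPO4 were also called in mouselincRNA1117 (2.76, adjusted p = 0.00920; 2.09 without CaPO4 2), mouselincRNA1337 (2.52, 0.0159) and mouselincRNA0293 (2.26, 0.0450), and shifts towards - in mouselincRNA1595 (-3.39, 0.00559) and mouselincRNA1377 (-2.12, 0.0387; -1.32 without CaPO4 2). The call in mouselincRNA1337 was lost without control 1 or 3, that in mouselincRNA1377 without any 1 control, naringenin 1 or naringenin 2, and that in mouselincRNA0293 without any 1 control, any 1 CaPO4 array or naringenin 1. Under normexp the shifts in mouselincRNA1117, mouselincRNA1250, mouselincRNA1595 and mouselincRNA0293 lost their calls. In mouselincRNA1117, mouselincRNA1337, mouselincRNA0293, mouselincRNA1595, mouselincRNA1377 and mouselincRNA0997 a strand went undetected on some or all arrays of a group. Their shifts are therefore measured partly at background. The - probe of mouselincRNA1117 and the + probe of mouselincRNA1595 would not have passed the filter without the controls. The shifts of mouselincRNA1117 and mouselincRNA1595 are therefore given as a description.

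With naringenin against CaPO4 all 5 called shifts went towards +, in mouselincRNA1634 (4.68, adjusted p = 0.0447), mouselincRNA0158 (4.59, 0.0107), mouselincRNA0305 (3.81, 0.0248), mouselincRNA0939 and mouselincRNA1040 (3.25, 0.0498). Over all strand pairs on the array, 21 called shifts went towards + and 17 towards -. In mouselincRNA0158 the - probe was at 8.16, 3.79 and 7.73 with CaPO4 and at 3.88, 3.99 and 4.21 with naringenin. CaPO4 2 thus lay below the naringenin arrays, and the - probe was not called in this comparison. The + probe of mouselincRNA0158, undetected on all CaPO4 arrays, was detected on all 3 naringenin arrays. In the 5 called mouselincRNA pairs 1 of the strands was dim in CaPO4 or in naringenin except in mouselincRNA0939, so those shifts are measured partly at background. That of mouselincRNA0158 rests on a + probe that passed the filter through the naringenin arrays alone. Without CaPO4 2 the shifts were 6.36 in mouselincRNA1634, 5.61 in mouselincRNA0158, 4.61 in mouselincRNA0305 and 4.22 in mouselincRNA1040. Without CaPO4 1 and CaPO4 3 that of mouselincRNA1634 was 3.90 and 3.78, and that of mouselincRNA0158 was 3.82 without CaPO4 1. Under normexp these 4 lost their calls, with adjusted p = 0.135, 0.171, 0.256 and 0.249 in the same order. The shifts in mouselincRNA1634 and mouselincRNA1040 lost their calls without any 1 array other than CaPO4 2, that in mouselincRNA0305 without CaPO4 1, CaPO4 3 or any 1 naringenin array, and that in mouselincRNA0158 without CaPO4 1, CaPO4 3 or naringenin 3.

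With naringenin against control, beside mouselincRNA0522 and mouselincRNA1250, the largest shifts were in mouselincRNA1634 (5.32, adjusted p = 0.00341), mouselincRNA1188 (4.75, 0.00986), mouselincRNA0158 (4.69, 0.00107) and mouselincRNA1337 (3.23, 0.00243) towards +, and in mouselincRNA0009 (-5.05, 0.00247; -4.30 without control 2), mouselincRNA1619 (-3.52, 0.00922), mouselincRNA1377 (-3.52, 0.00206) and mouselincRNA0997 (-2.88, 0.000827) towards -. In mouselincRNA1188, whose - probe is the first of the bright elements above, the + probe was at -4.17, -4.44 and -4.53 on the control arrays, none detected, and at -1.94, -1.62 and -2.46 on the naringenin arrays, all detected. The bright strand thus fell where the faint strand rose. These 10 named shifts kept their call in every setting tried for them. The + probe of mouselincRNA0158 passed the filter through the naringenin arrays alone, and that of mouselincRNA1250 through the controls alone. Without the naringenin arrays the + probe of mouselincRNA1188 and the - probes of mouselincRNA1619 and mouselincRNA0009 would not have reached 3 arrays. The shifts of mouselincRNA0158, mouselincRNA1250, mouselincRNA1188, mouselincRNA1619 and mouselincRNA0009 are therefore given as a description. Except in mouselincRNA0522 and mouselincRNA0997, a strand went undetected on some or all arrays of a group, so those shifts are measured partly at background.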

How the data were processed

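Per the file headers, the authors made spot intensity, background-subtracted and without scaling between arrays, with Agilent Feature Extraction 11.0.1.1 (protocol GE1_1100_Jul11); the design was annotated to mm9. The deposited matrix that joins the arrays, called normalized, has the same intensity within 0.0999%. The other deposited columns used were the software's spot marks. Per the labels' protocols, ribosomal RNA was removed and the rest amplified by random priming.

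Spots that were controls or outliers were left out, the spots of each probe averaged, and log2 intensity was taken relative to the 75th percentile of each array; these log2 values were computed from the deposited intensity. Probes well above background on at least 3 of 9 arrays were kept, where at least 50% of a probe's spots had to carry the mark. limma 3.58.1 in R 4.3.3 was fitted on all probes with a mean per group, and over all strand pairs. The files were read by data.table (version 1.17.8) and jsonlite 2.0.0, and figures drawn with Python 3.11.15 and matplotlib 3.10.9. The scripts were tested on simulated data.

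The members, the marker lists and the rule for named probes (brightest, most even, largest called changes without overlap, largest strand shifts, changes of detection and reversals) were chosen with earlier results of these data known. Alternatives were scaling, background correction, filters, blocks and leaving out arrays. The number of arrays limits the precision. Slide was not analysed here. Replicate numbers did not pair arrays: the correlation of deviations within a number ran from -0.41 to 0.45.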

Additional observations from a re-analysis of the deposited data

How the results depend on the processing

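Counts of called probes are given in the order CaPO4 minus control, naringenin minus CaPO4, naringenin minus control; the cause of each difference was not tested. Against 78, 7 and 125, normexp background correction gave 47, 1 and 96, no scaling 92, 4 and 71, scaling on the probes detected throughout 69, 4 and 109, the filter on detection on all 9 arrays, which tests fewer probes, 21, 1 and 44, and the replicate number as a block 74, 3 and 128. Leaving out 1 array gave 35 to 99, 1 to 111 and 94 to 153, and leaving out CaPO4 2 and naringenin 3 together 148, 123 and 171. For naringenin minus CaPO4, scan as a fixed block or the 2 groups alone gave 1. Alternatives chosen after seeing the data were scan 2 alone, which gave 0 by limma (29 at an unadjusted p under 0.05), a filter above the 99th percentile of the negative controls on at least 3 arrays, which gave 43, 3 and 76, outlier spots kept, and detection without naringenin 3.

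Called strand pairs were 11, 5 and 28, and 6 to 12, 1 to 21 and 18 to 33 without 1 array. Without a filter they were 33, 2 and 74, with detection on all 9 arrays 3, 0 and 8 (the 0 by limma, with 5 at an unadjusted p under 0.05), above negative controls 7, 1 and 13, and with the replicate number as a block 10, 3 and 27. For naringenin minus CaPO4, quantile normalization gave 2, normexp 1, scan as a fixed block 1, the 2 groups alone 1, scan 2 alone 0 (8 at an unadjusted p under 0.05), and leaving out CaPO4 2 and naringenin 3 together 27. Probes on all 9 arrays numbered 58 above negative controls and 192 by the software's laxer mark, and 98 without naringenin 3; on at least 1 array they numbered 197 above negative controls and 328 without naringenin 3. The median change with CaPO4 against control was 0.10 under normexp and 0.27 without a filter, against -0.31, so its sign depends on how dim probes are treated. No named change reversed under any alternative, and of the named probes 5 of 24, 0 of 6 and 21 of 27, and of the named strand shifts 3 of 9, 0 of 5 and 10 of 10, kept their call under all of them.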
